A study of Mus musculus with 12 samples.

Results

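To describe how paired immune receptors differ between stages and cytokines in basophils, 10 receptor genes were followed in RNA-seq counts of bone marrow-derived basophils (BMBAs). They are the rows named Cd200r1, Cd200r3 and Cd200r4 (CD200 receptors), Pilra, Pilrb1 and Pilrb2 (paired immunoglobulin-like type 2 receptors), and Clec12a, Clec4a2, Clec4d and Clec4e (C-type lectin-like receptors), 10 of the 31301 gene rows of the table. Bone marrow cells of wild-type C57BL/6J mice were cultured for 7 days with IL-3 at 0.3 ng/mL or with TSLP at 1 µg/mL, the TSLP dose being that of the culture protocol, since the sample labels print another unit. From each kind of culture FcεRIαhiCD49blo cells, called immature here and pre-basophils by the study, and FcεRIαloCD49bhi cells, called mature, were sorted. This gave the groups immature IL-3, mature IL-3, immature TSLP and mature TSLP, each with 3 libraries, which the study describes as 3 cultures. The age of the mice is not stated. The gate before the sort was CD200R3+, so the product of Cd200r3 is part of how the cells of all 4 groups were chosen.

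Clec12a and Pilrb1 were chosen by their counts in these libraries, Clec12a as a marker of pre-basophils against mature cells and Pilrb1 for its rise with TSLP. The stage differences of Clec12a, the cytokine differences of Pilrb1 and the interaction of either gene are therefore given as descriptions, without a test.

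Paired receptors are families in which near relatives carry opposite signals. An inhibitory member has a long cytoplasmic tail that recruits phosphatases such as SHP-1 or adaptors such as DOK2, whereas an activating member has a short tail and borrows an adaptor with an activation motif, commonly DAP12 (product of Tyrobp) or the Fc receptor γ chain (product of Fcer1g). In basophils, whose activation through FcεRI also runs through the γ chain and SYK, receptors of this kind can set how readily the cell responds, and CD200R3 is widely used as a surface marker of mouse basophils and mast cells.

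Total counts ranged from 1720065 to 3685285 per library. A gene was tested if it passed a filter on low counts, which 10861 genes did, all 10 receptors among them. Pilra, Pilrb1, Pilrb2 and Clec4a2 held few counts in immature IL-3 cells and passed through the other groups. Replicates differed from each other by more than sampling noise, so no library was counted as a duplicate. The libraries carried the defining transcripts of basophils, the 7 basophil markers (Mcpt8, Prss34, Fcer1a, Itga2, Gata2, Ms4a2 and Cd200r3) summing to between 37667 and 41160 CPM (counts scaled to the TMM-normalised library size) in immature IL-3, 9292 and 11613 in mature IL-3, 26715 and 29732 in immature TSLP, and 7445 and 10586 in mature TSLP libraries. Fcer1a, Itga2 and Cd200r3 encode FcεRIα, CD49b and CD200R3, by which the cells were sorted, so their presence is no independent check of identity. Mast cell markers did not pass 8.90 CPM in sum in any library, and Tpsab1 and Mrgprx2 had no count in any group. TSLP mature replicate 1 stood apart. Its 9 neutrophil markers (Ngp, Ltf, Camp, S100a8, S100a9, Ly6g, Retnlg, Mmp8 and Lcn2) summed to 830 CPM against 61.0 and 53.5 CPM in TSLP mature replicates 2 and 3, and its 6 B cell markers to 131.7 CPM, so values it moves are also given without it. In bulk RNA, fewer cells that express a gene and less of its RNA in each cell cannot be told apart.

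**Figure D1:**
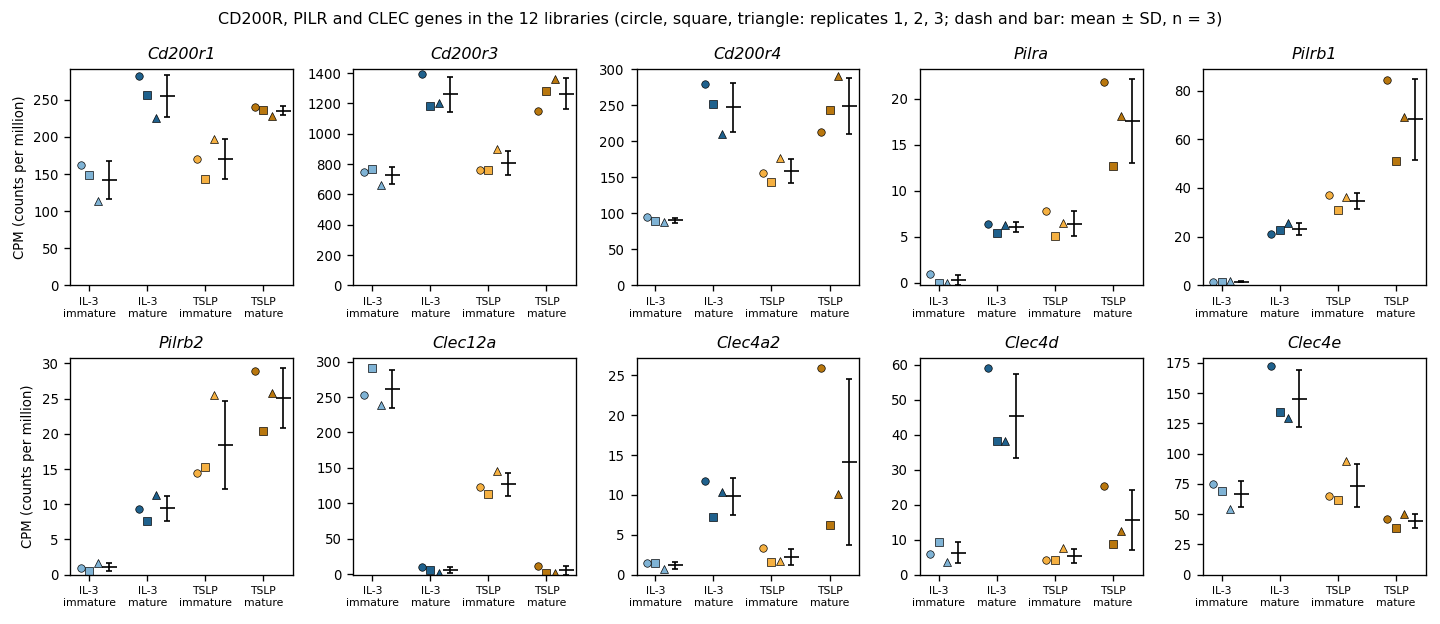
Level of each receptor gene in CPM (vertical axes, each starting at or just below 0) in the 12 libraries of the 4 groups, with replicates 1, 2 and 3 as circle, square and triangle and the mean ± SD (n = 3) beside them. The means of the CD200R and PILR genes were lowest in immature IL-3 cells, where Cd200r1 and Cd200r3 overlapped with immature TSLP cells, Clec12a was high in both immature groups, and Clec4e was lowest in mature TSLP cells.

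Within IL-3 cultures, 9 receptors could be tested between the stages (Clec12a, the stage marker, being left out), and 9 of 9 were lower in immature than in mature cells. Of all genes tested, 46.2% were called in this comparison, 22.1% as higher and 24.1% as lower in immature cells. The median log2 fold change over the 9 receptors was -2.81, and over all genes -0.06. Of the 9, Pilra, Pilrb1, Pilrb2 and Clec4a2 were near 0 in immature IL-3 cells and passed the filter through other groups, so a low value there was built into their being tested. Over the other 5 receptors 5 were called and the median was -1.14. Within TSLP cultures 7 of the 9 were called, 6 lower and 1 (Clec4e) higher in immature cells, where the background was 25.1% called, 12.2% higher and 12.9% lower. The median was there -0.65 over the receptors and -0.03 over all genes. Calls are those of edgeR's quasi-likelihood test with Benjamini-Hochberg adjustment over all genes at an adjusted p under 0.05, and every log2 fold change below is given with its standard error from that fit. With TSLP the 7 calls became 4 without TSLP immature replicate 1 and 4 without TSLP immature replicate 2.

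Between cytokines, 9 receptors could be tested (Pilrb1 being left out). In mature cells 4 of 9 were called, Pilra and Pilrb2 as higher and Clec4d and Clec4e as lower with TSLP, against a background of 24.3% of all genes, 12.4% higher and 11.9% lower. In immature cells 3 of 9 were called, Cd200r4, Pilra and Pilrb2, all as higher with TSLP, against a background of 13.3%, 7.38% higher and 5.90% lower. Of the calls over all genes between mature groups 51.1% were higher with TSLP, and 40.6% without the ribosomal rows Rn45s, Rn18s and Rn28s1. With those rows kept, the share was 43.2% with the PILR genes summed and 42.4% without IL-3 immature replicate 2, so it moved with other settings too. Pilra and Pilrb2 share sequence with Pilrb1, which was picked for this very difference, so they are not independent of it. Pilra, Pilrb2 and Clec4a2 were also near 0 in immature IL-3 cells and passed the filter through other groups. A rise over that group was thus built into their being tested. Over the other 6 receptors 1 was called in immature cells, Cd200r4 as higher with TSLP. In mature cells 2 of these 6 were called, both as lower with TSLP. Medians of the log2 fold change were 0.01 in mature and 0.26 in immature cells, and those over all genes 0.09 and 0.04. The interaction, which tests whether the difference between immature and mature cells itself differed between TSLP and IL-3, was called for 2 of the 8 receptors tested, Pilrb2 and Clec4e, against 4.19% of all genes. The call of Pilrb2 rests on 9 counts in immature IL-3 cells and is not independent of the choice of Pilrb1. Comparisons of the same group with others share those libraries, so their values are set side by side and not correlated.

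**Figure D2:**
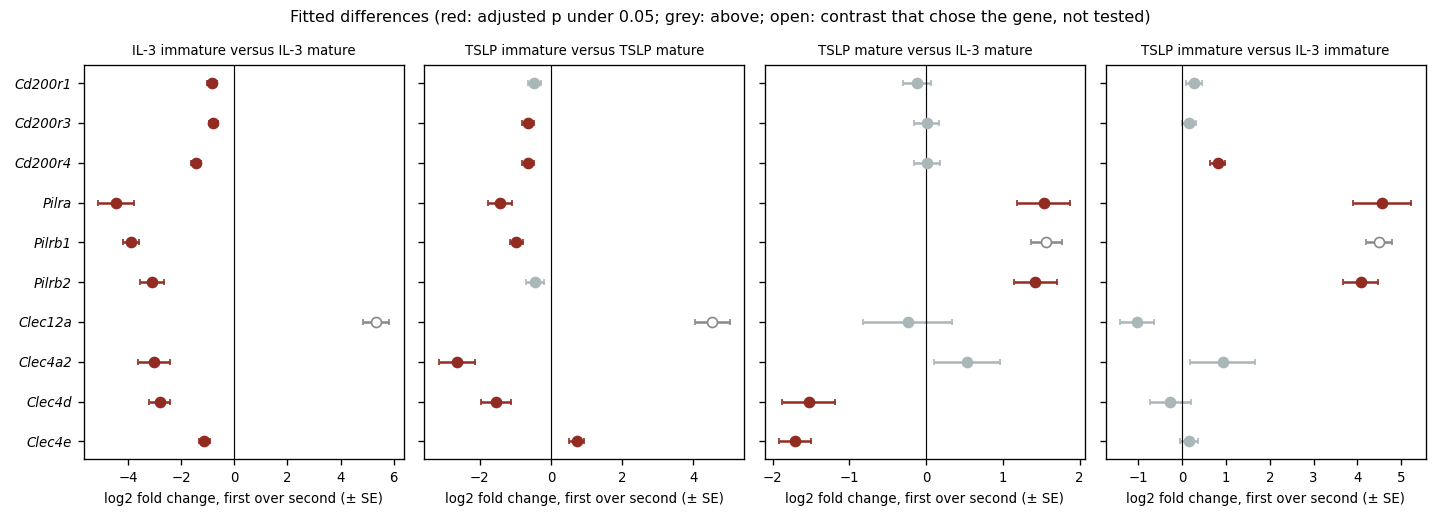
Log2 fold change of each receptor gene (horizontal axes, group named first over group named second, ± SE of the edgeR fit) in the comparisons of stage within each cytokine and of cytokine within each stage. Red points passed an adjusted p of 0.05, grey points did not, and open points mark the contrasts by which Clec12a and Pilrb1 were chosen. In IL-3 cultures all 9 tested receptors lie left of 0, whereas with TSLP Clec4e lies to the right.

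The CD200 receptors are encoded side by side on chromosome 16 in a stretch of 215.6 kb (GRCm38, GENCODE vM21), Cd200r1 at chr16:44765736-44794978, Cd200r4 at chr16:44811733-44839150 and Cd200r3 at chr16:44943678-44981380, all on the plus strand and all protein-coding. CD200R1 is the inhibitory receptor of the family and binds CD200, a glycoprotein found on many cells, whereas CD200R3 and CD200R4 signal through DAP12 and are activating. Of the 50-base words of their transcripts, 1.16% (Cd200r1), 2.69% (Cd200r3) and 4.94% (Cd200r4) also occurred in another gene, so that reads of these genes are mostly assignable.

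The upstream regions of Cd200r3 and Cd200r4 are shown because both genes share an aligned stretch, 89.7% identical over 156 columns of the 300-base RefSeq promoter windows. Whether their differences between groups differed from each other was not tested. The 250 bases before each RefSeq start (GRCm38.p6) are printed 5′ to 3′ in the direction of transcription, and capitals mark matches to searched motifs, named below.
Cd200r3 (chr16:44943428-44943677, plus strand): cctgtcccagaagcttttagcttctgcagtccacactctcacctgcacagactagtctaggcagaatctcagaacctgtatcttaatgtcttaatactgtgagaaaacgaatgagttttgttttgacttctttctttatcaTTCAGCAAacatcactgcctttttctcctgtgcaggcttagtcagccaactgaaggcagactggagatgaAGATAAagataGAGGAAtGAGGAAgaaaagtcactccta
Cd200r4 (chr16:44820478-44820727, plus strand): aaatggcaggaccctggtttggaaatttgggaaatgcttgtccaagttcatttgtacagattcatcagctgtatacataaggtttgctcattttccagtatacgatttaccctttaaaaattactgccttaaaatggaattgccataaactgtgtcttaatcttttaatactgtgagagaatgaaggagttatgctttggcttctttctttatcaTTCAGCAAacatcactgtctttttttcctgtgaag
The motifs searched, on both strands, were AGATAA for GATA factors, TTGCNNAA for C/EBP, GAGGAA for PU.1 and TTCNNNGAA for STAT factors. A match is a description of letters and not of a bound site. Both sequences hold the C/EBP letters on the minus strand (TTCAGCAA, as printed), and Cd200r3 also holds the GATA letters and the PU.1 letters, the latter at 2 places. Of 32851 RefSeq promoters of the same window, 9.99% hold the GATA letters, 9.56% those of C/EBP, 23.3% those of PU.1 and 7.02% those of STAT.

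Cd200r3 was the most abundant of the 3. Its level was 748, 766 and 662 CPM in immature IL-3, 1392, 1185 and 1204 CPM in mature IL-3, 761, 764 and 897 CPM in immature TSLP, and 1153, 1284 and 1359 CPM in TSLP mature replicates 1 to 3. Every mature library lay above every immature library. The log2 fold change of immature over mature cells was -0.80 ± 0.17 with IL-3 (adjusted p = 0.00108, edgeR) and -0.65 ± 0.17 with TSLP (adjusted p = 0.00982). With TSLP the call was lost without TSLP immature replicate 1 (adjusted p = 0.0754), without TSLP immature replicate 2 (0.0728), without TSLP mature replicate 3 (0.0546), and with no filter on low counts (0.0504). Between cytokines the difference was 0.01 ± 0.17 in mature and 0.16 ± 0.17 in immature cells, and neither was called (95% intervals -0.38 to 0.39 and -0.23 to 0.54).

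Cd200r1, the inhibitory member, was at 163, 149 and 114 CPM in immature IL-3, 282, 257 and 226 CPM in mature IL-3, 170, 143 and 197 CPM in immature TSLP, and 241, 237 and 229 CPM in mature TSLP libraries. The immature libraries lay below the mature ones of the same culture without overlap. The difference was called with IL-3 (log2 fold change -0.85 ± 0.18, edgeR adjusted p = 0.00128) and not with TSLP (-0.47 ± 0.18, adjusted p = 0.0695). Whether the stage difference itself differed between cytokines was tested and not called (interaction 0.38 ± 0.26, adjusted p = 0.466), so the call in IL-3 cells and its absence in TSLP cells do not show a difference between the cytokines.

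Cd200r4 varied most among the 3. It was at 94.6, 89.4 and 87.7 CPM in immature IL-3, 279, 251 and 211 CPM in mature IL-3, 156, 143 and 177 CPM in immature TSLP, and 213, 243 and 290 CPM in mature TSLP libraries. The groups of immature cells did not overlap with each other or with the mature groups, whereas the mature groups overlapped. The log2 fold change of immature over mature cells was -1.45 ± 0.18 with IL-3 (edgeR adjusted p = 6.6e-06) and -0.65 ± 0.17 with TSLP (adjusted p = 0.0123). In immature cells the gene was higher with TSLP by 0.81 ± 0.18 (adjusted p = 0.00745), a 1.77-fold ratio of pooled counts with a 95% counting interval of 1.62 to 1.93, and in mature cells the difference was 0.01 ± 0.17 (adjusted p = 0.978). The interaction was 0.80 ± 0.25 with an adjusted p of 0.0817 by edgeR and 0.0285 by the Wald test of DESeq2. The stage difference with TSLP was no longer called without TSLP immature replicate 1 (adjusted p = 0.0672), TSLP immature replicate 2 (0.0921) or TSLP mature replicate 3 (0.089).

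The balance of inhibitory to activating CD200 receptors was compared as the log2 ratio of the Cd200r1 count to the summed Cd200r3 and Cd200r4 counts, which no scaling of libraries can move. It was -2.54 ± 0.18 in immature IL-3, -2.56 ± 0.08 in mature IL-3, -2.51 ± 0.13 in immature TSLP and -2.68 ± 0.17 in mature TSLP libraries (mean ± SD, n = 3). By an exact two-sided permutation test within strata (400 labelings, smallest possible p 0.005), immature and mature cells differed by 0.10 (p = 0.265) and TSLP and IL-3 cells by -0.05 (p = 0.58), 2 comparisons of which neither passed before adjustment. Within the family Cd200r1 took 14.7% ± 1.51, 14.5% ± 0.70, 14.9% ± 1.13 and 13.5% ± 1.41 of the counts in the 4 groups in the order above. Cd200r4 took 9.49% ± 0.63 in immature IL-3 cells and between 14.0% and 14.2% on average in the other groups, its highest immature IL-3 library (10.2%) lying below the lowest of the others (12.8%).

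**Figure D3:**
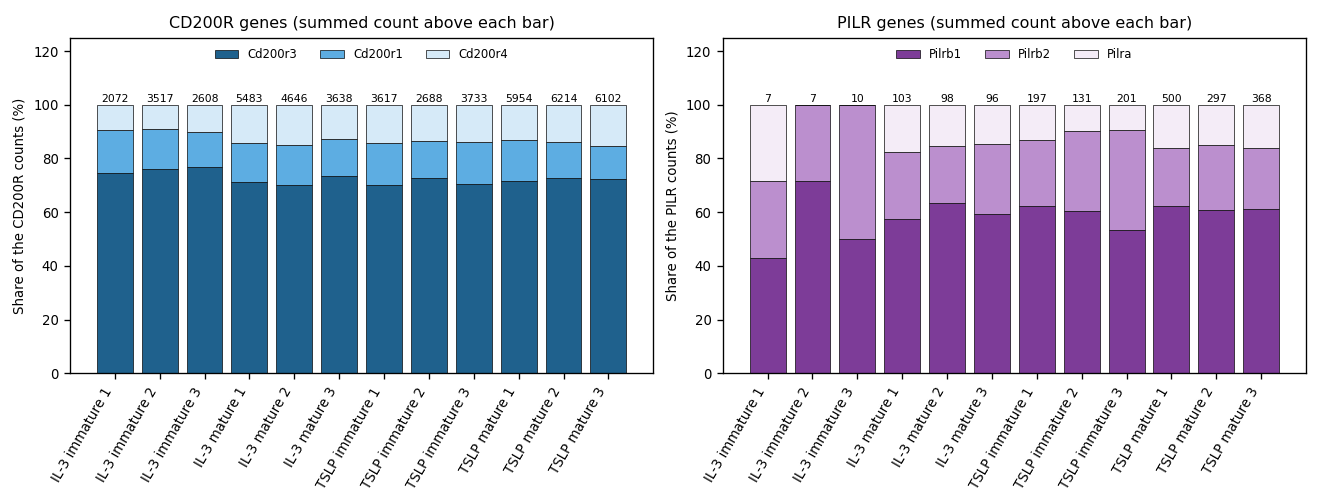
Share of each gene in the summed counts of its family (vertical axes, %), with 1 bar for each library and the summed count printed above the bar. The share of Cd200r1 is near 14% throughout, the share of Cd200r4 is smallest in the 3 immature IL-3 libraries, and the PILR bars of immature IL-3 cells rest on 7, 7 and 10 counts.

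The PILR genes lie within 49.86 kb on chromosome 5 (GRCm38), Pilra at chr5:137821952-137836281, Pilrb1 at chr5:137852147-137858106 and Pilrb2 at chr5:137865827-137871815, all protein-coding on the minus strand. PILRα is inhibitory and recruits SHP-1, and PILRβ is its activating partner that signals with DAP12. Both bind sialylated ligands such as CD99. The genes are hard to count apart. Of the 50-base words of the transcripts, 30.1% of Pilrb1 and 29.2% of Pilrb2 occurred elsewhere, mostly in each other, and 7.57% of Pilra, and how reads that match several transcripts were handled is not given in the sources used here. For ribosomal rows such reads were kept, since the count of the ribosomal precursor Rn45s equalled those of Rn18s and Rn28s1 together within 1.79% in every library. Exons of Zcwpw1, Gm36551 and Gm43495 overlap Pilra, Pilrb1 and Pilrb2 on the other strand, and whether counting used strand is not given either. Values of single PILR genes are therefore uncertain as to which gene they belong to.

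The upstream regions of the 3 genes are shown because they are near copies and the genes moved together. They are printed as above, with the same capitals.
Pilra (chr5:137836279-137836528, minus strand): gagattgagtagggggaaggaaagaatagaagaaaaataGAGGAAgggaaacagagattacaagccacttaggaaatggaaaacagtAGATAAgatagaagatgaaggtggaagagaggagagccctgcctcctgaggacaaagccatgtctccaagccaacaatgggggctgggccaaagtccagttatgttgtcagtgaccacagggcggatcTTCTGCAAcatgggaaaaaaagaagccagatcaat
Pilrb1 (chr5:137858050-137858299, minus strand): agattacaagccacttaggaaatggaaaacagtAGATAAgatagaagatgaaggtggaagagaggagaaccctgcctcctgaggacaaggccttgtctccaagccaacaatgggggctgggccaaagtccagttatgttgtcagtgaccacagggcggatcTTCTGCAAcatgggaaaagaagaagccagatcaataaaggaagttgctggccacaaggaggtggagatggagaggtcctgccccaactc
Pilrb2 (chr5:137871759-137872008, minus strand): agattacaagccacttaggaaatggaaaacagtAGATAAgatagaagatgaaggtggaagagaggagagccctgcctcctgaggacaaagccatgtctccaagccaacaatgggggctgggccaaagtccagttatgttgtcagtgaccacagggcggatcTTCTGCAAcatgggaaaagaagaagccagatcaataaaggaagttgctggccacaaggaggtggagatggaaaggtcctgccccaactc
Aligned stretches of the promoter windows were 98.4% identical between Pilra and Pilrb1 (246 columns), 99.2% between Pilra and Pilrb2 (246 columns) and 97.3% between Pilrb1 and Pilrb2 (300 columns). All 3 hold the GATA letters (AGATAA) and the C/EBP letters on the minus strand (TTCTGCAA, as printed), at the same place of the shared stretch, and Pilra, whose window reaches further upstream in it, also the PU.1 letters. None of the 3 windows holds the STAT letters, which says only that these letters are not in these bases. Over the 9 receptors with a promoter in the table, the GATA letters were found in 4, those of C/EBP in 7, of PU.1 in 5 and of STAT in 1 (Clec4a2). Over all promoters the shares were 9.99%, 9.56%, 23.3% and 7.02%. The PILR windows are near copies, and the C/EBP letters of Cd200r3 and Cd200r4 lie in their shared stretch. These promoters are therefore not independent, and the counts cannot be read as an enrichment.

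Pilrb1 was nearly silent in immature IL-3 cells and present in the other groups. It was at 1.46, 1.43 and 1.66 CPM in immature IL-3 (3, 5 and 5 counts), 21.02, 22.6 and 25.7 CPM in mature IL-3, 37.0, 30.9 and 36.4 CPM in immature TSLP, and 84.2, 51.1 and 69.2 CPM in mature TSLP libraries. The 4 groups did not overlap with each other. The log2 fold change of immature over mature cells was -3.89 ± 0.31 with IL-3 and -0.97 ± 0.19 with TSLP, the latter -0.69 ± 0.18 without TSLP mature replicate 1. These differences rest on the same libraries as the rise with TSLP for which the gene was picked, so they are not independent of that choice. Without Pilrb1, 8 of 8 receptors were called lower in immature cells with IL-3, and 6 of 8 were called with TSLP. As a description, TSLP exceeded IL-3 by 4.48 on the log2 scale in immature and by 1.56 in mature cells, 23.1-fold and 2.99-fold in pooled counts (95% counting intervals 13.3 to 43.9 and 2.53 to 3.54). The value in mature cells was 1.30 without TSLP mature replicate 1, the highest library of its group.

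Pilrb2 followed at a lower level, with 0.97, 0.57 and 1.66 CPM in immature IL-3 (2, 2 and 5 counts), 9.26, 7.65 and 11.3 CPM in mature IL-3, 14.4, 15.2 and 25.5 CPM in immature TSLP, and 28.9, 20.4 and 25.8 CPM in mature TSLP libraries. The stages were apart with IL-3 and overlapped with TSLP. The log2 fold change of immature over mature cells was -3.10 ± 0.44 with IL-3 (edgeR adjusted p = 2.97e-05) and -0.44 ± 0.26 with TSLP (adjusted p = 0.224), the latter -0.24 ± 0.26 without TSLP mature replicate 1, and the interaction was 2.65 ± 0.52 (adjusted p = 0.00877). It rose with TSLP by 4.08 ± 0.40 in immature (adjusted p = 1.07e-05) and by 1.42 ± 0.28 in mature cells (adjusted p = 0.00248). These rises are not independent of the choice of Pilrb1. A low value in immature IL-3 cells was also built into Pilrb2 being tested. The rise in mature cells was 1.22 ± 0.28 (adjusted p = 0.00474) without TSLP mature replicate 1.

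Pilra, the inhibitory member, was the scarcest. immature IL-3 libraries held 2, 0 and 0 counts, mature IL-3 18, 15 and 14 (6.41, 5.46 and 6.31 CPM), immature TSLP 26, 13 and 19 (7.82, 5.08 and 6.47 CPM) and mature TSLP 81, 45 and 59 (21.9, 12.8 and 18.2 CPM). mature IL-3 and immature TSLP libraries overlapped, the immature IL-3 ones lay below and the mature TSLP ones above all others. Against immature IL-3 cells the ratio of pooled counts was 26.0 (95% counting interval 6.80 to 220.6) in mature IL-3 and 28.2 (7.47 to 238.5) in immature TSLP cells. By edgeR the stage difference was -4.45 ± 0.68 with IL-3 (adjusted p = 6.08e-05) and -1.43 ± 0.34 with TSLP (adjusted p = 0.0053), or -1.14 ± 0.34 (adjusted p = 0.0183) without TSLP mature replicate 1, and the rise with TSLP was 4.56 ± 0.67 in immature (adjusted p = 0.000407) and 1.53 ± 0.34 in mature cells (adjusted p = 0.00558). The rise in mature cells was 1.26 ± 0.35 (adjusted p = 0.0143) without TSLP mature replicate 1. Both rises are not independent of the choice of Pilrb1. A low value in immature IL-3 cells was also built into Pilra being tested. The interaction, 3.03 ± 0.83, missed the threshold (adjusted p = 0.0523) and fell on either side of it under other settings (0.0134 to 0.180). Without IL-3 immature replicate 1, which held its only 2 counts in that group, the fitted interaction was 5.87, a value set by the fit's prior and not a bound.

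Because single PILR rows are uncertain, the 3 were also summed before the fit. The summed row differed between stages by -3.71 ± 0.29 with IL-3 and -0.83 ± 0.20 with TSLP, and between cytokines by 4.34 ± 0.28 in immature and 1.47 ± 0.21 in mature cells, the latter as a description since the sum holds Pilrb1. Pilrb1 made up 59.97% ± 3.04 of the PILR counts in mature IL-3, 58.7% ± 4.82 in immature TSLP and 61.4% ± 0.92 in mature TSLP libraries. The share of Pilra was 15.8% ± 1.51, 10.9% ± 2.04 and 15.8% ± 0.56 in the same order. With 24 counts over the immature IL-3 libraries the shares there could not be resolved (Pilrb1 54.2% of pooled counts, exact 95% interval 32.8% to 74.4%).

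The C-type lectin-like receptors lie on chromosome 6, Clec4a2 (chr6:123106428-123143999), Clec4d (chr6:123262111-123275265) and Clec4e (chr6:123281789-123289870, minus strand, the others plus) within 183.4 kb and Clec12a apart from them (chr6:129342691-129365303, plus). CLEC12A and the product of Clec4a2, known as DCIR, are inhibitory, whereas the products of Clec4d (MCL) and Clec4e (Mincle) associate with the Fc receptor γ chain and sense mycobacterial glycolipids. Clec4d and Clec4e shared no 50-base word with any other gene, Clec12a 0.40% and Clec4a2 6.69%.

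Clec12a, the marker of pre-basophils, was at 253, 291 and 238 CPM in immature IL-3 and 123, 113 and 145 CPM in immature TSLP libraries, and at 10.7, 5.83 and 2.25 CPM in mature IL-3 and 12.1, 2.27 and 1.54 CPM in mature TSLP libraries. Its stage difference, 5.33 with IL-3 and 4.54 with TSLP on the log2 scale, is what it was chosen for, and with TSLP it was 6.11 without TSLP mature replicate 1. The immature IL-3 libraries all lay above the immature TSLP ones, a log2 fold change of -1.04 ± 0.38 for TSLP (edgeR adjusted p = 0.085). That difference was called under 5 of 23 alternatives and not under the others (adjusted p up to 0.321). The 5 were the fits without TSLP mature replicate 1 (-1.07 ± 0.21, adjusted p = 0.00183), without TSLP mature replicate 3 (adjusted p = 0.0348), with the 2 immature groups alone (0.00107), with the replicate number as a block (0.0421) and with no filter on low counts (3.42e-05). In mature cells the difference was -0.24 ± 0.57 (adjusted p = 0.793), and -1.81 ± 0.49 (adjusted p = 0.0116) without TSLP mature replicate 1, the library with the raised neutrophil markers and with 45 of the 58 Clec12a counts of its group. Mcpt8 was at 4236 CPM in that library against 2166 and 2290 in TSLP mature replicates 2 and 3, and Itga2 at 96.9 against 209 and 199. Both values were shifted toward immature TSLP libraries (Mcpt8 8592 to 9037, Itga2 81.5 to 89.1). Mcpt8 was still nearer to TSLP mature replicates 2 and 3. Prss34 (1499 against 961 and 1173) was shifted that way too, but far below immature TSLP libraries (14188 to 16521). Gata2 (1131 against 1191 and 1199) and Cd200r3 were shifted that way as well. Ms4a2 went the other way (691 against 763 and 719), and Fcer1a (1779 against 871 and 1141) lay above all immature TSLP libraries. Whether immature cells were carried into that library was not tested.

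Clec4e, the Mincle gene, was the receptor whose stage difference turned with the cytokine. It was at 75.2, 69.4 and 54.6 CPM in immature IL-3, 172, 135 and 129 CPM in mature IL-3, 64.6, 62.1 and 94.0 CPM in immature TSLP, and 45.9, 38.3 and 49.8 CPM in mature TSLP libraries. With IL-3 the immature libraries lay below the mature ones (-1.14 ± 0.20, edgeR adjusted p = 0.000274), and with TSLP they lay above (0.72 ± 0.21, adjusted p = 0.0173). The interaction was 1.86 ± 0.29 (adjusted p = 0.00203) and was called under each of 22 alternative settings (adjusted p 1.33e-06 to 0.00775). In mature cells Clec4e was lower with TSLP by a log2 fold change of -1.70 ± 0.21 (adjusted p = 9.66e-05), 3.30-fold in pooled counts, and in immature cells the difference was 0.15 ± 0.20 (95% interval -0.32 to 0.62, not called). The stage difference with TSLP was not called after thinning the libraries to the smallest total (adjusted p = 0.0564).

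Clec4d, whose product pairs with Mincle, was at 5.82, 9.43 and 3.64 CPM in immature IL-3, 59.1, 38.2 and 38.3 CPM in mature IL-3, 4.21, 4.298 and 7.49 CPM in immature TSLP, and 25.4, 8.80 and 12.6 CPM in mature TSLP libraries. Immature libraries lay below mature ones in both cultures, and mature TSLP ones below mature IL-3 ones. The stage difference was -2.81 ± 0.39 with IL-3 (edgeR adjusted p = 2.4e-05) and -1.55 ± 0.42 with TSLP (adjusted p = 0.0125), and in mature cells TSLP was lower by a log2 fold change of -1.53 ± 0.35 (adjusted p = 0.0057). The highest mature TSLP value belonged to replicate 1, the library with 830 CPM of neutrophil markers. Without it the stage difference with TSLP was -0.90 ± 0.38 (adjusted p = 0.08), the cytokine difference in mature cells -2.17 ± 0.31 (adjusted p = 0.000166) and the interaction 1.86 ± 0.50 (adjusted p = 0.0351) in place of 1.26 ± 0.59 (adjusted p = 0.264). The stage call with TSLP was also lost without TSLP immature replicate 1 (0.0835) and replicate 2 (0.0683).

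Clec4a2, an inhibitory gene, was at 1.46, 1.43 and 0.66 CPM in immature IL-3, 11.8, 7.29 and 10.4 CPM in mature IL-3, 3.31, 1.56 and 1.70 CPM in immature TSLP, and 25.9, 6.24 and 10.2 CPM in mature TSLP libraries. It was lower in immature cells of both cultures, by -3.02 ± 0.61 with IL-3 (edgeR adjusted p = 0.000754) and -2.64 ± 0.51 with TSLP (adjusted p = 0.00131), the latter -1.74 ± 0.43 (adjusted p = 0.00546) without TSLP mature replicate 1. With IL-3 a low immature value was built in, since the gene passed the filter through other groups. Between cytokines it was not called in either stage (0.53 ± 0.43 in mature and 0.92 ± 0.74 in immature cells), and without TSLP mature replicate 1 the difference in mature cells was -0.34 ± 0.36 (adjusted p = 0.517). The part of other cells, or of immature basophils, in that library in the values of Clec4a2, Clec4d and Clec12a was not tested.

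**Figure D4:**
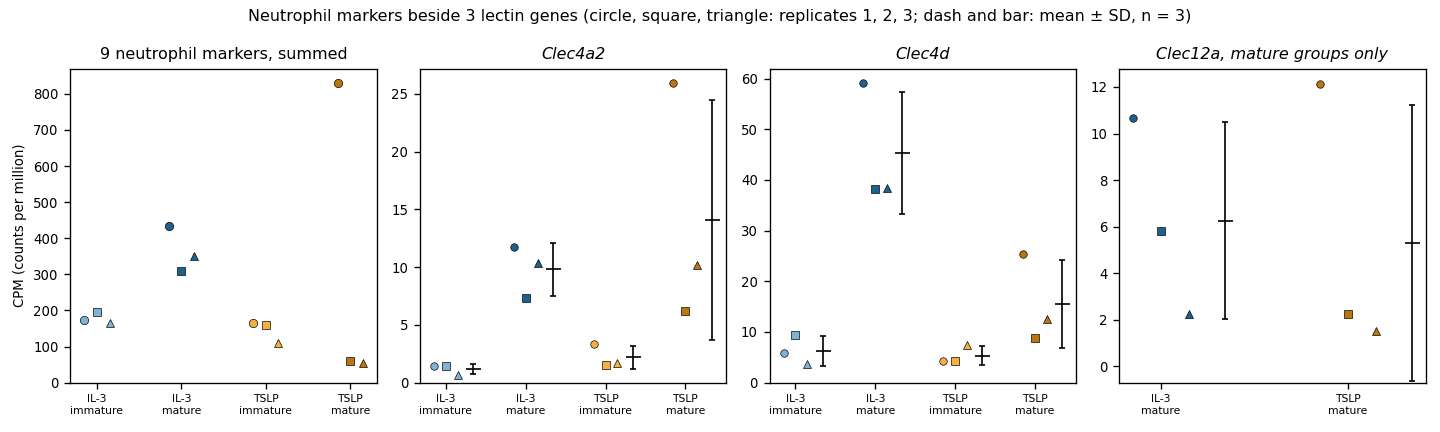
Summed level of the 9 neutrophil markers and levels of Clec4a2, Clec4d and, in mature cells only, Clec12a (vertical axes, CPM, mean ± SD with n = 3 beside the single genes) in the libraries, with replicates 1, 2 and 3 as circle, square and triangle. The circle of mature TSLP cells is the highest of its group in all 4 panels, at 830, 25.9, 25.4 and 12.1 CPM.

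Per kilobase of the longest coding transcript, the scale on which genes can be set side by side, Cd200r3 led in every group with 187 ± 14.3 CPM per kb in immature IL-3, 325 ± 29.5 in mature IL-3, 208 ± 20.1 in immature TSLP and 326 ± 26.9 in mature TSLP cells. In immature IL-3 cells Cd200r3 was followed by Clec12a (104 ± 10.7), Cd200r1 (75.0 ± 13.4), Cd200r4 (45.2 ± 1.78) and Clec4e (26.4 ± 4.21), and Pilrb1, Pilrb2, Clec4a2 and Pilra were each under 1 CPM per kb. In mature cells of either cytokine Cd200r1 and Cd200r4 came next, at 135 ± 14.96 and 123 ± 17.1 with IL-3 and 124 ± 3.24 and 124 ± 19.4 with TSLP, and these neighbours did not differ beyond their spread. With IL-3, Clec4e (57.8 ± 9.30) and Clec4d (34.2 ± 9.09) stood above Pilrb1 (12.8 ± 1.32) in mature cells, and with TSLP Pilrb1 (37.7 ± 9.18) stood above Clec4e (17.7 ± 2.33), Pilrb2 (13.9 ± 2.37) and Clec4d (11.8 ± 6.56). The order rests on the annotated length and does not allow for a bias of the libraries along the transcript.

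Likeness to other genes was measured as the root mean square difference of mean-centred log2 CPM over the 12 libraries among 7550 genes averaging 10 CPM or more, as a description, since the libraries share stage and cytokine. Cd200r1 was most like Cd200r3 (0.13), with Atp6ap1 (0.14) and Dnajc14 (0.14) close behind. The likeness was not mutual, since Cd200r3 was most like Srsf5 (0.10), Zfp553 (0.12) and Ubald1 (0.13). Cd200r4 was most like Specc1 (0.13), Arhgap25 (0.14) and Cd44 (0.15). Pilrb1 lay nearest to Cish (0.37), which encodes a STAT5-induced inhibitor of cytokine signalling, then to Pilrb2 (0.46) and Metrnl (0.48), and Pilrb2 nearest to Pdzd4 (0.29) and Cish (0.39). Clec12a lay nearest to Mns1 (0.67) and to the cell division genes Cks1b (0.68) and Spc25 (0.70), at a larger distance than the others. Clec4e was most like Mospd2 (0.32) and Npr2 (0.34), and Clec4d most like Slfn2 (0.45). Pilra and Clec4a2 were below 10 CPM on average and were not ranked.

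Other genes of these pathways were followed as lists, whose counts are to be read against the shares of all genes called in each direction (with IL-3 24.1% lower in immature cells, with TSLP 12.9% lower, and for TSLP over IL-3 7.38% higher among immature and 12.4% among mature cells). Of the 33 other paired receptors listed (leukocyte immunoglobulin-like, PIR, SIRP, CD300, Fcγ, Siglec and TREM families), 30 were in the table and 19 were tested. In IL-3 cultures 15 of 19 were lower in immature cells and none higher, with a median log2 fold change of -2.14, among them Pirb, an inhibitory receptor for MHC class I (-4.07 ± 0.24, edgeR adjusted p = 2.52e-09), Lilra6 (-4.33 ± 0.35, adjusted p = 7.42e-08) and Pira1 (-3.53 ± 0.30, adjusted p = 9.42e-08). Several of the 19 held few counts over the immature IL-3 libraries (Sirpb1b 2, Pira6 5, Cd33 9 and Lilra6 17) and passed the filter through other groups. A low value in immature IL-3 cells was thus built into their being tested, in the comparisons with mature IL-3 and with immature TSLP cells. In TSLP cultures 15 of 19 were lower (median -1.35), or 14 of 20 without TSLP mature replicate 1. Of all 11020 genes tested in the latter fit, 1361 were called lower. With TSLP 5 of 19 were higher in immature cells, with Cd300lf (2.63 ± 0.21, adjusted p = 7.79e-07), Lilra6 (2.41 ± 0.39, adjusted p = 0.000981) and Lilrb4a (1.47 ± 0.17, adjusted p = 5.4e-05), and 2 of 19 in mature cells (Cd300lb 0.89 and Siglecf 0.69), a count no larger than the share of all genes gives. The Siglecf call was lost under 7 of 23 alternatives (adjusted p up to 0.143). In mature cells 6 of 20 were called without TSLP mature replicate 1, 2 higher and 4 lower. Of all 11020 genes tested in that fit, 1146 were called higher and 1822 lower there. PIR and LILR genes are near copies of each other and their counts may be split between them.

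Of the 20 other C-type lectin-like receptors listed, 11 were tested, and 9 were lower in immature cells with IL-3 (median -2.29) and 8 with TSLP (median -1.59), 6 of them without TSLP mature replicate 1. In that last fit 1361 of all 11020 genes tested were called lower. Clec5a, a DAP12-coupled receptor, held 1 count over the immature IL-3 libraries against 56 in mature IL-3, 43 in immature TSLP and 157 in mature TSLP libraries. Clec4a1, Clec2i, Clec10a and Clec4a3 held 7, 8, 10 and 12 counts over the immature IL-3 libraries. All of these genes passed the filter through other groups, so a low value in immature IL-3 cells was built into their being tested. With TSLP 4 of 11 were higher in immature cells, Clec2i by 2.98 ± 0.41 (edgeR adjusted p = 0.000227) and Klrb1f by 1.79 ± 0.40 (adjusted p = 0.00809) among them, and in mature cells 2 were higher and 2 lower, Clec2d by -1.77 ± 0.30 (adjusted p = 0.00101) and Klrg1 by -3.14 ± 0.80 (adjusted p = 0.0111). Klrg1 held 5 counts over the mature TSLP libraries against 35 in mature IL-3. It passed the filter through other groups, so a low value with TSLP was built in. The call of Clec5a in mature cells was lost under 18 of 23 alternatives (adjusted p up to 0.224).

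Of the 15 tested adaptors and kinases of activating receptors, 8 were lower in immature cells with IL-3, where 46.2% of all genes were called in either direction, among them Tyrobp (DAP12, -1.62 ± 0.32, edgeR adjusted p = 0.000677), the SRC family kinase gene Fgr (-3.07 ± 0.53, adjusted p = 0.000179) and Lat2 (-1.52 ± 0.20, adjusted p = 1.13e-05). With TSLP 6 were lower and 1 (Card9, 0.65 ± 0.19, adjusted p = 0.0207) higher. In mature cells Tyrobp was lower with TSLP (-1.31 ± 0.32, adjusted p = 0.00868), as was Hcst, which encodes DAP10 (-2.14 ± 0.48, adjusted p = 0.00529), and Syk was higher (0.73 ± 0.18, adjusted p = 0.00784). In immature cells Syk (0.89 ± 0.18), Card9 (0.86 ± 0.20) and Lcp2 (0.69 ± 0.17) were higher with TSLP, 3 of 15, or 6 of 15 without TSLP mature replicate 1. Of all 11020 genes tested in the latter fit, 1060 were called higher and 1183 lower. The call of Lcp2 was lost in 4 of 12 fits with a library left out (adjusted p up to 0.0929), and that of Card9 in 1 (0.0556).

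Of the 8 phosphatases and adaptors of inhibitory receptors, 5 were lower in immature cells with IL-3, with Dok3 (-0.85 ± 0.21), Inpp5d (SHIP-1, -0.81 ± 0.17) and Dok2 (-0.75 ± 0.20), and 2 with TSLP (Dok2 and Inpp5d), 2 of 8 being close to the 25.1% of all genes called there. The calls of Dok2 and Inpp5d with TSLP were lost under 19 and 17 of 23 alternatives (adjusted p up to 0.189 and 0.265). With TSLP 3 were higher in immature cells (Dok3, Csk and Ptpn6, the SHP-1 gene, by 0.58 to 0.65, edgeR adjusted p 0.0337 to 0.0464) and 2 in mature cells (Csk and Ptpn6, by 0.57 and 0.56), of which 0 were called in mature cells without TSLP mature replicate 1 (adjusted p 0.120 and 0.155). In immature cells the calls of Dok3, Csk and Ptpn6 were lost under 18, 12 and 19 of 23 alternatives (adjusted p up to 0.261, 0.171 and 0.154). Of the 7 listed ligands and relatives 2 passed the filter. Cd99, which encodes a PILR ligand, was lower in immature than in mature cells with IL-3 (-0.95 ± 0.18, edgeR adjusted p = 0.000536) and lower with TSLP in mature cells (-0.79 ± 0.18, adjusted p = 0.00615).

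**Figure D5:**
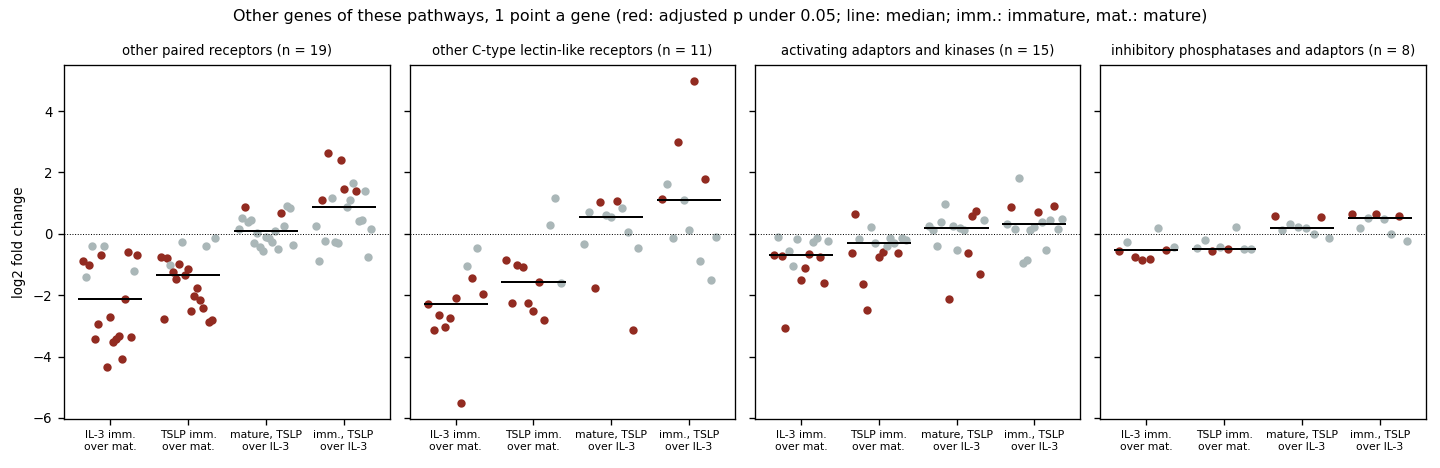
Log2 fold change (vertical axis) of the tested genes of 4 lists in the comparisons of stage and cytokine, with 1 point a gene, red where the adjusted p was under 0.05, and a line at the list's median. In the stage comparison with IL-3 the points of the other paired receptors and C-type lectin-like receptors lie below 0, at medians of -2.14 and -2.29, and the adaptor and phosphatase lists lie closer to 0. Both receptor lists include genes with few counts in immature IL-3 cells that passed the filter through other groups.

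Markers of other lineages differed between the groups as well. The 10 monocyte and macrophage markers (Csf1r, Ly6c2, Ccr2, Adgre1, F13a1, C1qa, C1qb, C1qc, Mrc1 and Cx3cr1) summed to between 118 and 141 CPM in immature IL-3, 593 and 729 in mature IL-3, 366 and 432 in immature TSLP, and 600 and 866 in mature TSLP libraries, with 10 of 10 detected in each group. The neutrophil markers summed to between 165 and 195, 309 and 435, 111 and 165, and 53.5 and 830 CPM in the same order. The 8 dendritic cell markers did not exceed 27.2 CPM in any library, with Cd209a and Batf3 at 0 in 3 of the 4 groups. The 5 T and NK cell markers summed to between 45.4 and 50.3 CPM in immature IL-3 libraries and to at most 12.5 CPM in the others. In immature IL-3 cells Cd3e, Ncr1 and Klrb1c had no count, and IL-3 immature replicate 3 held counts of only 1 of the 5. The 6 B cell markers summed to between 26.2 and 31.7 CPM in immature TSLP and 6.00 and 6.95 CPM in immature IL-3 libraries, to at most 2.55 CPM in mature IL-3 and to between 14.8 and 131.7 CPM in mature TSLP libraries. The 5 eosinophil markers summed to between 60.4 and 87.3 CPM in mature and 16.0 and 38.4 CPM in immature libraries. The part of such cells, or of such transcripts within basophils, in the receptor levels was not tested.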

How the data were processed

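Basophils sorted from IL-3 or TSLP cultures of mouse bone marrow were profiled in 12 libraries, 3 in each of 4 groups taken from the sample labels. The authors deposited raw counts per gene. Per the study's methods, polyadenylated RNA was reverse transcribed on oligo(dT) beads, amplified as a whole transcriptome by PCR and sequenced on an Ion Proton, adapters were trimmed with Cutadapt, and reads were mapped with Bowtie2 to GRCm38 reference RNA and counted per gene (the submitters' processing notes name the builds GRCm39 and mm10). Use of strand and of molecular identifiers is not given in the sources used here. An unnamed row holding column totals was left out, and 0 columns were unmapped.

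Counts were tested with edgeR 4.0.16 (R 4.3.3): filterByExpr (minimum count 10, minimum total 15), TMM scaling, 1 quasi-likelihood fit of 4 group means over 12 libraries without a block, and Benjamini-Hochberg adjustment over 10861 genes. The common biological coefficient of variation was 20.4%. CPM use TMM-scaled totals. Ratios of pooled counts carry exact 95% intervals, which cover counting error only, since PCR reads without identifiers are not independent molecules. p-values measure the spread between these libraries.

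The genes named are the 10 receptors, the members of the pathway lists with the largest called change in each comparison, and the nearest genes by likeness. The receptors and lists were chosen with earlier results of these data known. Gene positions and transcript words (50 bases) are from GENCODE vM21, promoters from RefSeq (GRCm38.p6), where 9 of 10 receptors matched. A search of the protein sequences for inhibitory motifs was not run. Alternatives tried were DESeq2 1.42.0, other scalings, other filters, thinning to the smallest total, ribosomal rows left out, summed PILR genes, a replicate block, fits of only the groups compared and each library left out in turn. The exclusion of all 3 ribosomal rows was chosen after seeing the data.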

Additional observations from a re-analysis of the deposited data

Results flagged for a closer look

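For 2 receptors the difference between immature and mature cells itself differed between TSLP and IL-3 cultures by the interaction term of the edgeR fit. For Clec4e the interaction was 1.86 on the log2 scale (adjusted p = 0.00203), with immature cells below mature ones in the IL-3 libraries and above them in the TSLP libraries, without overlap in either culture. For Pilrb2 it was 2.65 (adjusted p = 0.00877), with stages apart with IL-3 and overlapping with TSLP, in a row that may hold reads of Pilrb1. The immature IL-3 libraries held 9 counts of Pilrb2, which passed the filter through the other groups, so a low value there was built in. Its interaction is also not independent of the choice of Pilrb1 for its rise with TSLP. Groups of 3 libraries are too small for Dixon's test of an outlying value, which was not run.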

How the results depend on the processing

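In the IL-3 stage comparison every receptor tested was called under each alternative and with each library left out, 9 of 9 except for 8 of 8 with a filter of 10 CPM in 3 libraries, which left out Clec4a2, and 7 of 7 with the PILR genes summed. With each library left out in turn the called receptors numbered 4 to 7 between TSLP stages, 4 to 5 between mature groups, 3 to 4 between immature groups and 2 to 4 for the interaction, the 4 coming without TSLP mature replicate 1. Summing the PILR genes left 2 called between mature groups, 1 between immature groups and 1 for the interaction, by construction, since the sum holds Pilrb1 and was not counted there. The interaction of Clec12a turned from -0.79 to 0.74 without TSLP mature replicate 1 and ranged from -1.41 to 0.74 with each library left out. The balance of CD200 receptors ranged from 0.0548 to 0.143 by stage and from -0.0932 to -0.0048 by cytokine with each library left out. The replicate numbers were not taken to pair the samples. The correlation of deviations of same-numbered libraries ran from -0.08 to 0.39 and was not over 0.1 in every pair of any comparison. With 3 pairs in a comparison these values cannot exclude that same-numbered libraries belong together. With the replicate block 9, 7, 4, 4 and 3 receptors were called in the comparisons in that order (stages with IL-3, stages with TSLP, mature, immature, interaction), and all genes called numbered 5251, 3067, 2853, 1893 and 556. Without the block all genes called numbered 5020, 2731, 2634, 1443 and 455, fewer in each comparison. The balance with the replicate block gave 0.10 by stage (exact sign-flip p = 0.3125) and -0.05 by cytokine (p = 0.5938). Without Rn45s, Rn18s and Rn28s1, 40.6% of the calls between mature groups were higher with TSLP, against 51.1% with them. With those rows kept, the share was 43.2% with the PILR genes summed and 42.4% without IL-3 immature replicate 2. The cause of these changes was not tested. The 2 counts of Pilra in IL-3 immature cells limit what can be said of its differences.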
